A study of Arabidopsis thaliana with 16 samples.

Results

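Seedlings of the histone deacetylase mutant hda19 were compared directly with seedlings of a second deacetylase mutant, hda6. The 4 libraries were chosen by their genotype labels, hda19(-/-) for 2 and hda6(-/-) for the other 2, out of 16 libraries in the series. All 32548 genes of the deposited table entered, and 20846 were high enough to test. Wild type (Col-0), with 2 libraries, is given beside them to show where each gene normally stands. All 3 genotypes were Arabidopsis thaliana seedlings aged 14 days, raised on Murashige and Skoog plates at 23 °C during 16 h of light and at 22 °C during the 8 h of darkness. The labels give no treatment, no mutant allele and no accession for the mutant lines, and leave unstated whether both libraries of a genotype come from different plants. The p-values therefore measure only the spread between these samples, which may be technical. Whole seedlings were extracted as total RNA and sequenced as single-end reads of 50 bp. In such bulk tissue, fewer cells of a type and less RNA per cell cannot be told apart.

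Histone deacetylases of the RPD3 type remove acetyl groups from lysines of histone tails, which goes with compact chromatin and low transcription. HDA6 is known in Arabidopsis for silencing transposons, repeats and transgenes together with DNA methylation, a mark placed on cytosines. HDA19, another RPD3-type enzyme, is known for being recruited by corepressors to genes of development, hormone response and stress. The comparison asks which transcripts depend differently on these enzymes.

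The hda19 libraries held 19443073 and 19477668 reads and the hda6 libraries 19259579 and 19309833. Depth over all 16 libraries lay between 19259579 and 19522197. Replicates of hda19 differed by a median of 0.124 on the log2 scale per tested gene, and replicates of hda6 by 0.106. The summed level of 4 leaf markers was 601500 and 541800 in hda19, against 655900 and 597700 in hda6, so the material was leafy in each library. Summed root markers stood at 604.8 and 769.7 in hda19 and at 629.6 and 656.9 in hda6. Seed storage markers were low and uneven between replicates, at 69.8 and 0.738 in hda19 and at 40.5 and 4.98 in hda6. None was called, but only 2 of the 4 had more than 3 reads over the hda19 and hda6 libraries together. Summed flower markers were 127.5 and 149.1 in hda19, against 85.3 and 73.9 in hda6 and 55.7 and 52.0 in wild type, with 1 of 4 called, AG. Summed pollen markers were 113.6 and 96.6 in hda19, against 152.3 and 139.8 in hda6, with 0 called and 3 of 4 above that read limit. The part of these differences in the results was not tested. Here and below, levels are the deposited normalised read counts per library, and a log2 fold change is hda19 minus hda6 on the scale of log2(value + 1), so that a positive value means higher in hda19. Genes count as called where limma's p, adjusted by Benjamini-Hochberg over all 20846 tested genes, is under 0.05.

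The transcript of HDA19 itself (AT4G38130, annotated as HD1, chr4:17896278-17899509, minus strand, TAIR10.1) checked the hda19 label. It stood at 0.994 and 4.87 in hda19, against 2245 and 2249 in hda6 and 2088 and 2222 in wild type. The log2 fold change was -9.36 ± 0.30 (SE, adjusted p = 1.2e-10), and the gene was off in the hda19 libraries alone among these 3 genotypes. HDA6 (AT5G63110, chr5:25315506-25318347) gave no such check, with 476 and 506 in hda19, 519 and 450 in hda6 and 430 and 425 in wild type. Its log2 fold change was 0.02 ± 0.08 (adjusted p = 0.88), and the groups overlapped. Of the other 10 genes of this deacetylase family in the list, 7 were tested. Limma called 0 of the 7, as did edgeR and DESeq2; at an unadjusted p under 0.05 limma had 2, edgeR 3 and DESeq2 0. Without hda6 replicate 2, 1 family member was called higher in hda19. The nearest to a call was HDA9, a relative with roles in flowering and senescence, at 264 and 280 in hda19, against 233 and 235 in hda6 (adjusted p = 0.073).

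Called genes were many and ran in both directions, but the large differences ran mostly one way. Of the tested genes, 2323 (11.1%) were higher and 2649 (12.7%) lower in hda19 than in hda6, 4972 (23.9%) in all, and the median log2 fold change over all tested genes was 0.002. Among these, 289 genes (1.39%) were higher and 753 (3.61%) lower by 1 or more on the log2 scale. At a log2 size of 3 and over, 1 gene was higher in hda19 and 221 were lower. Beside wild type, 2925 genes (14.0%) were higher and 3372 (16.2%) lower in hda19 (30.2% in all), while 2343 (11.2%) were higher and 2609 (12.5%) lower in hda6 (23.8% in all); both counts share the wild-type libraries. The count of higher genes was 1413 without hda19 replicate 2, 1316 without hda6 replicate 1 and 1435 without hda6 replicate 2, and that of lower genes 1572 and 1636 without hda6 replicates 1 and 2.

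**Figure D1:**
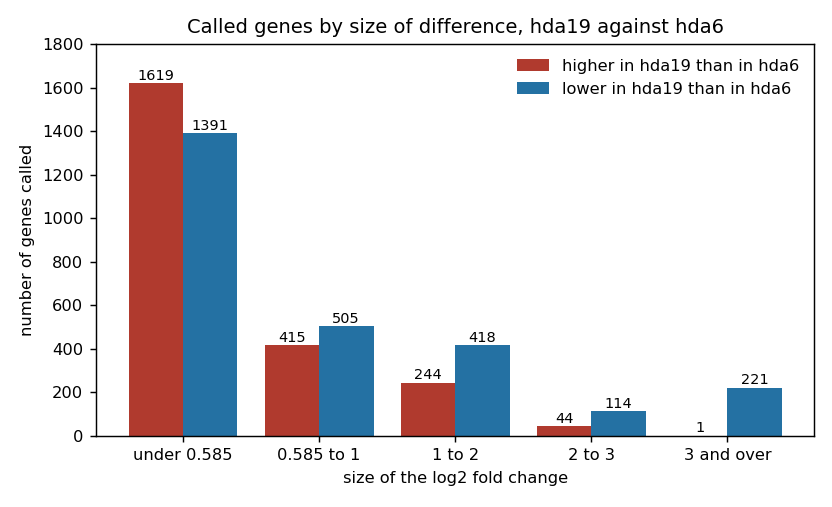
Number of called genes (vertical axis) by size of the log2 fold change, hda19 minus hda6 (horizontal axis), with red bars for genes higher in hda19 and blue bars for genes lower. Below 0.585 there are 1619 higher and 1391 lower genes, while the largest class holds 1 higher and 221 lower genes.

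The most extreme differences were genes read in hda6 and hardly at all in hda19. With "off" set at a mean under 5 and "on" at a mean of at least 20, 160 genes were on in hda6 and off in hda19, and 3 were on in hda19 and off in hda6. Of the 160, HDA19 was 1, 74 had 0 reads in both hda19 libraries, and 124 had a wild-type mean under 5. Wild type was itself on for 8. Their hda6 means ran from 20.1 to 3445 with a median of 51.35. All 160 passed the filter on low values and were called, which the limits on the means nearly ensure, and no support is drawn from that. Chromosomes 1 to 5 held 36, 36, 29, 25 and 34 of them, beside 5509, 3159, 4117, 3213 and 4848 tested genes. Chromosome 2 had the fewest tested genes but as many of the 160 as chromosome 1. Of the 160, 27 lay within 10 kb of another, and no such share was taken over all tested genes. By annotation, 133 were protein-coding and 22 long non-coding RNAs, beside 20364 and 279 of all tested genes. Long non-coding RNAs thus made up a larger share of the 160 than of the tested genes, and protein-coding genes a smaller one. The cause was not tested.

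The highest of them was AT2G03965 (chr2:1251510-1252989, plus strand), annotated as an uncharacterized protein. It stood at 0.997 and 0 in hda19, against 3369 and 3521 in hda6 and 2.98 and 0.999 in wild type (log2 fold change -11.25 ± 0.66, adjusted p = 5.6e-08). The long non-coding RNA AT2G04655 overlaps it on the opposite strand for 669 bases and was also lower, at a log2 fold change of -7.34; the strand setting of the counting is not given in the sources used here, so their reads cannot be told apart. AT2G15555, an RNA with no assigned class (chr2:6785904-6786976), had 0 reads in hda19, against 2289 and 2119 in hda6 and 0.995 and 0 in wild type. On a floor of 3 reads per library it was at least 729.5-fold lower in hda19 (adjusted p = 1.7e-08). AT5G41660, also uncharacterized, had 0 reads in hda19, against 1239 and 1264 in hda6 and 0 and 0.999 in wild type, at least 414.3-fold lower in hda19 (adjusted p = 1.8e-09). In each of these, both hda6 libraries stood together and far above the other 4.

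Several of these genes share an annotated product. Genes annotated as beta-galactosidase related or as glycosyl hydrolase family 35 made up 7 of the 160. Beta-galactosidases cleave galactose from sugars and cell-wall chains, but whether these genes encode working enzymes was not examined. All of these genes but AT5G35760 passed the filter on low values through hda6 alone, so nothing is read from their number. The strongest was AT3G44265 (chr3:15955138-15956246, minus strand), at 0 and 0.972 in hda19, against 1595 and 1612 in hda6 and 0 in both wild-type libraries (log2 fold change -10.16 ± 0.50, adjusted p = 9.3e-09). AT4G29200 stood at 0 and 0.972 in hda19, against 262 and 376 in hda6. AT2G06845, AT5G01080, AT3G44070 and AT3G24542 had 0 reads in hda19 and hda6 levels between 88.8 and 303. AT5G35760 was not silent in hda19, at 2.99 and 6.80, against 90.3 and 78.9 in hda6 and 9.95 and 5.99 in wild type. These genes resemble each other, so reads of 50 bp may be shared among them, and the grouping was made after their values were seen.

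A second shared product was the Ulp1 protease family, which in this annotation includes genes carried by mobile elements as well as SUMO proteases. All 4 tested members of the 7 in the table were on in hda6 and off in hda19, each with 0 reads in hda19. They passed the filter through hda6 alone, so that this count was fixed by it. AT5G45570 stood at 375 and 343 in hda6 and 0 and 2.0 in wild type, and was at least 118.8-fold lower in hda19. AT5G28810 stood at 203 and 299 in hda6, AT5G28235 at 74.2 and 95.8 and AT4G08430 at 25.4 and 32.0, all with 0 in wild type. Of 66 genes with "transpos" in the annotated product, 20 were tested, of which 1 was higher in hda19 and 5 were lower. Each of the 5 had a mean under 1 in hda19 and in wild type, so they passed the filter through hda6 alone and could only be lower in hda19. AT3G30820, a retrotransposon ORF-1 gene, had 0 reads in hda19 and in wild type, against 45.8 and 64.9 in hda6 (adjusted p = 6.8e-07). AT2G41590, like the non-LTR element Ta11, stood at 0 and 0.972 in hda19, against 68.0 and 60.9 in hda6.

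**Figure D2:**
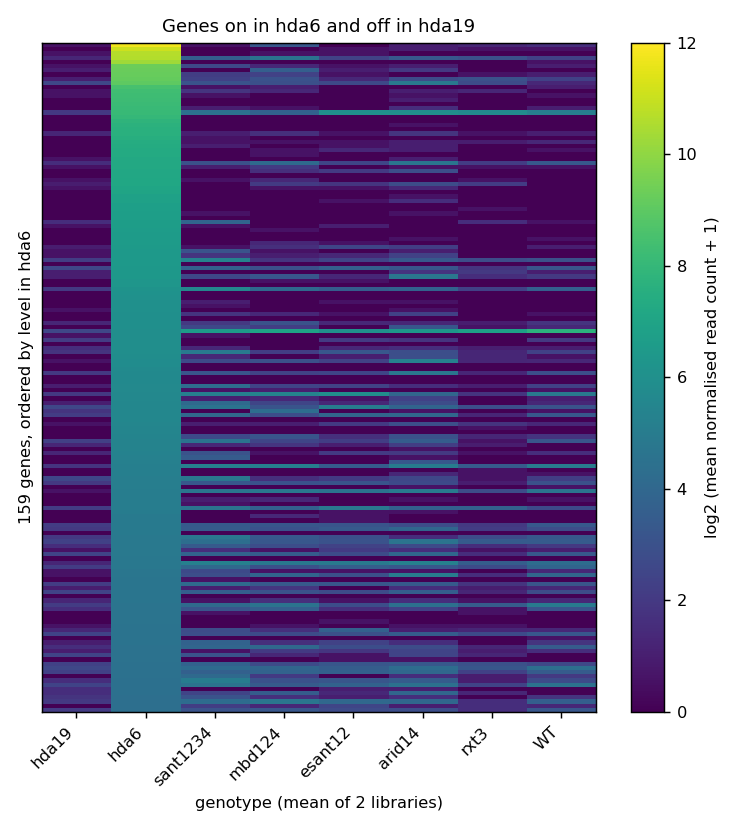
Level of the 159 genes on in hda6 and off in hda19, HDA19 left out, as log2 of the mean normalised read count + 1 (colour) in 8 genotypes (columns; mean of 2 libraries). Genes run down by their hda6 level, which ranges from 20.1 to 3445; most are dark in hda19, in the other 5 mutants and in wild type, and the hda19 and hda6 columns differ by the choice of the genes.

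Read across the other mutants of the series, few of the 160 genes were on outside hda6. There were 17 in sant1234, 9 in mbd124, 8 in esant12, 15 in arid14 and 3 in rxt3, beside 8 in wild type, HDA19 included in each. The plot of these genes by genotype shows the same.

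Upstream sequence was read for 3 of the silent genes because HDA6 acts together with DNA methylation, which in plants is copied most faithfully at CG. The 250 bases before the annotated start follow, from the RefSeq TAIR10.1 genome, 5′ to 3′ on the gene's strand, with every CG in capitals: HISN6B (chr1:27066698-27066947, plus strand), SDC (chr2:7681912-7682161, plus strand) and AT3G44265 (chr3:15956247-15956496, minus strand).
HISN6B: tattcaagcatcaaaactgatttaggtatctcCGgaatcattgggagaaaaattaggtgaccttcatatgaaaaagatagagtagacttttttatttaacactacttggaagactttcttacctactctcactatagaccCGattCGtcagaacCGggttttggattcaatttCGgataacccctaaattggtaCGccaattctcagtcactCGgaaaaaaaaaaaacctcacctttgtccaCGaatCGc
SDC: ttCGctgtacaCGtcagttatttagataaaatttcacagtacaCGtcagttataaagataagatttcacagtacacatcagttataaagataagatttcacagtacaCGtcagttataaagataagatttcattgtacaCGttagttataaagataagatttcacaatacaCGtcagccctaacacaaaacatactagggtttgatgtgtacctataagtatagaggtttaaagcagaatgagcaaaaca
AT3G44265: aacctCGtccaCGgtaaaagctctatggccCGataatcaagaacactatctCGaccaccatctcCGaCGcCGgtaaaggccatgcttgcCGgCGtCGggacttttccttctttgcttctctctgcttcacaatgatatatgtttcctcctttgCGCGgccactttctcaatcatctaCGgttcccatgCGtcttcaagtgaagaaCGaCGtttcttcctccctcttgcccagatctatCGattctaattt
The windows held 9, 6 and 17 CG. The SDC window shows a run of near-identical copies. The 12 letters AAAGATAAGATT, one of the words of that length found most often in it, occur 4 times counting both strands, and 8 of 20845 tested genes, SDC among them, hold a copy (0.0384%). Over the 159 genes without HDA19, the median was 4 CG per 250 bases (quartiles 3 and 7), against a median of 5 (quartiles 3 and 7) over 20845 tested genes. No methylation was measured here.

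Genes known from earlier work to carry heritable or variable silencing in Arabidopsis were followed as a list of 12 in the table. Of the 10 tested, 4 were higher in hda19 and 3 lower, beside 11.1% higher and 12.7% lower over all tested genes. The 3 lower genes were HISN6B, SDC and QQS. HISN6B and SDC passed the filter on low values through hda6 alone and could only be lower in hda19. Nothing is therefore read from their number or from the size of their differences. HISN6B, which encodes a histidine biosynthesis enzyme and is silenced by methylation in some accessions, had 0 reads in hda19, against 166 and 179 in hda6 and 0.993 and 2.0 in wild type (log2 fold change -7.43 ± 0.51, adjusted p = 2.2e-07). SDC, an F-box gene kept off by RNA-directed DNA methylation of its upstream repeats, had 0 reads in hda19, against 57.9 and 57.9 in hda6 and 0.995 and 0 in wild type (adjusted p = 2.8e-06). SDC overlaps AT2G17695 on the opposite strand for 1303 bases, and that gene was near level, at a log2 fold change of -0.14. QQS, a regulator of starch content, was intermediate in wild type: 50.8 and 56.1 in hda19, against 903 and 907 in hda6 and 210 and 222 in wild type. Its log2 fold change was -4.06 ± 0.40 (adjusted p = 7.8e-06). FWA, an imprinted gene silent in normal seedlings, was too low for the test, with 0 reads in hda19, 7.10 and 4.99 in hda6 and 0 and 0.999 in wild type. The 4 higher members (AG, BNS, PAI1 and PPH) had log2 fold changes from 0.25 to 2.16, and 2 were left as higher without hda19 replicate 2 or without hda6 replicate 1.

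Among genes expressed in wild type (mean of at least 50), the lowest in hda19 relative to hda6 after HDA19 was AT5G35480, an uncharacterized protein. It stood at 33.9 and 20.2 in hda19, against 2340 and 2502 in hda6 and 196 and 198 in wild type (log2 fold change -6.48 ± 0.18, adjusted p = 3.7e-11). Its neighbour MRU1, named for its response in a methionine over-accumulating mutant, stood at 31.9 and 27.0 in hda19, against 1894 and 2006 in hda6 and 117 and 145 in wild type (-6.00 ± 0.13, adjusted p = 1.8e-12). Both were below wild type in hda19 (-2.86 and -2.11) and above it in hda6 (3.61 and 3.89). The genes lie head to head on chromosome 5, AT5G35480 on the minus and MRU1 on the plus strand, and share 220 bases between their starts. Because both starts open onto it, that stretch is shown whole (chr5:13689597-13689816, plus strand, TAIR10.1), with its 2 CG in capitals.
AT5G35480 to MRU1: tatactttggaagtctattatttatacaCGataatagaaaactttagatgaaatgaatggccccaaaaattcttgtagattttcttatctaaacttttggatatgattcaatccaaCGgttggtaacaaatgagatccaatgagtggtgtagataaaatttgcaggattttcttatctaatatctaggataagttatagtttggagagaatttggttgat
The same order, lowest in hda19 and highest in hda6, held for the Agenet domain gene AT5G52070, with 41.9 and 44.5 in hda19, 660 and 657 in hda6 and 132 and 161 in wild type (adjusted p = 1.4e-10).

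Other expressed genes were far lower in hda19 than in hda6 or wild type. MAP1D, a methionine aminopeptidase, had 23.9 and 10.5 in hda19, against 1098 and 1084 in hda6 and 1111 and 1056 in wild type (adjusted p = 4.7e-10); it overlaps the low gene AT4G37050 on the opposite strand for 223 bases. EXLB1, an expansin-like cell-wall gene, had 11.0 and 8.68 in hda19, against 183 and 185 in hda6 and 285 and 272 in wild type (-4.10 ± 0.17, adjusted p = 1.8e-09). NAS2, which makes the metal chelator nicotianamine, had 8.97 and 6.75 in hda19, against 103 and 103 in hda6 and 66.6 and 69.9 in wild type (-3.56 ± 0.22, adjusted p = 8.4e-08). EXLB1 was also lower in hda6 than in wild type (-0.60, adjusted p = 0.021). For NAS2 the mean in another mutant, esant12, was 13.9, near that of hda19. The labels give no allele or background for the hda19 line, so for these genes, and for ESM1 below, the loss of HDA19 and any other difference of that line at these loci cannot be told apart. AT5G26270, uncharacterized, was above wild type in both mutants, at 144 and 150 in hda19, 3977 and 3909 in hda6 and 51.7 and 49.0 in wild type. In all, 16742 tested genes had this wild-type level. Of these, 137 were called higher and 201 lower in hda19, each by 1 or more on the log2 scale and with non-overlapping groups. Over all tested genes, with no limit on p or size, groups did not overlap for 30.5% with hda19 higher and for 30.7% with hda19 lower.

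In the list of genes that run DNA methylation and silencing, those called were mostly higher in hda19. Of 30 tested, 8 were higher and 2 lower, beside 11.1% higher and 12.7% lower over all tested genes. Outside the list, some went the other way, among the genes on in hda6 and off in hda19. The DNA methyltransferase gene DMT2 had 2.99 and 3.87 in hda19, against 42.7 and 47.9 in hda6 (-3.39). The Argonaute gene AGO5 had 0 and 2.92 in hda19, against 33.55 and 44.9 in hda6 (-4.33). ROS1 (annotated as DML1), the DNA glycosylase that removes methylated cytosine, had 1392 and 1419 in hda19, against 667 and 562 in hda6 and 1072 and 1016 in wild type. Its log2 fold change was 1.2 ± 0.07 (adjusted p = 3.8e-08), and it was above wild type in hda19 (0.43) and below it in hda6 (-0.77). IBM1, a histone demethylase that protects gene bodies from methylation, had 483 and 435 in hda19, against 243 and 268 in hda6 and 484 and 502 in wild type (0.85 ± 0.09, adjusted p = 1.1e-05). For IBM1 the hda19 libraries stood with wild type and the hda6 libraries below both. CHR40, a CLASSY chromatin remodeller of the RNA-directed pathway, had 21.9 and 19.3 in hda19, against 5.09 and 7.99 in hda6 and 6.96 and 7.99 in wild type (adjusted p = 0.0039). The count of higher genes was 5 without hda19 replicate 1 or without hda6 replicate 2, and that of lower genes was 0 or 1 without any 1 library. Of 28 tested HD2 deacetylases and complex subunits, 5 were higher and 0 lower, each by less than 0.5 on the log2 scale, and 3 were higher without hda19 replicate 1. HD2C, a plant-specific deacetylase, had 931 and 915 in hda19, against 716 and 650 in hda6 (adjusted p = 0.0015).

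Of the FLC family of floral repressors, 5 were tested, and MAF1, MAF4 and MAF5 were lower in hda19 than in hda6 while AGL31 and MAF3 were not called. FLC itself was too low to test. MAF4 had 6.97 and 10.7 in hda19, against 93.4 and 91.8 in hda6 and 10.9 and 8.99 in wild type (-3.28 ± 0.40, adjusted p = 5e-05). MAF5, next to it, had 19.9 and 32.0 in hda19, against 106 and 56.9 in hda6 and 10.9 and 13.0 in wild type (-1.58 ± 0.30, adjusted p = 0.002). SNZ, an AP2-type repressor of flowering, went the same way but with hda6 at the wild-type level: 111 and 115 in hda19, 388 and 286 in hda6, 345 and 315 in wild type (adjusted p = 8.1e-07). Of 15 tested floral repressors, 3 were higher and 4 lower, beside 11.1% higher and 12.7% lower over all tested genes. The largest of the higher ones was the AP2-type repressor SMZ, with 73.7 and 76.4 in hda19, against 40.6 and 34.9 in hda6 (0.98 ± 0.23, adjusted p = 0.0073), not called without hda6 replicate 2 (adjusted p = 0.064). SMZ overlaps AT3G54980 on the opposite strand for 544 bases. Of 9 tested floral promoters, 0 were higher and 3 lower, among them the MADS-box genes AGL24, at 180 and 177 in hda19 against 360 and 422 in hda6, and AGL19, at 12.9 and 18.4 in hda19 against 36.5 and 35.9 in hda6 (adjusted p = 6.4e-05 and 0.0011). Lower members thus came from both classes.

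Glucosinolates are the sulphur-rich defence compounds of the cabbage family, built from chain-elongated methionine (aliphatic) or tryptophan (indole) and activated when tissue breaks. In hda19, 16 of 22 tested genes of the aliphatic branch were lower and 0 higher, with a median log2 fold change of -0.41, beside 11.1% higher, 12.7% lower and a median of 0.002 over all tested genes. Among the regulators, MYB76 had 6.97 and 10.7 in hda19, against 41.6 and 27.9 in hda6 and 24.9 and 27.0 in wild type (-1.86 ± 0.29, adjusted p = 0.00039). MYB29 had 218 and 188 in hda19, against 504 and 439 in hda6 and 476 and 382 in wild type (-1.21 ± 0.11, adjusted p = 3.9e-06). For both, hda19 lay below the other groups; hda6 overlapped wild type for MYB29 and stood just above it for MYB76.

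The enzymes moved with the regulators. CYP79F1, the first committed step on elongated methionine, had 1276 and 1104 in hda19, against 2799 and 2515 in hda6 and 2365 and 2204 in wild type (-1.16 ± 0.07, adjusted p = 1.1e-07). CYP83A1, the following step, had 2890 and 2622 in hda19, against 4222 and 4226 in hda6 (adjusted p = 3.6e-06), and the sulphotransferase SOT17 had 490 and 457 in hda19, against 915 and 736 in hda6 (adjusted p = 0.00032). The count of lower genes lay between 12 and 15 when 1 library was left out. Against wild type, 14 members were lower in hda19 and 0 higher, while 1 was lower and 7 were higher in hda6.

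Of 19 tested indole glucosinolate and camalexin genes, 2 were higher and 9 lower in hda19, none by a log2 fold change of 1 or more. Over all tested genes, 11.1% were higher and 12.7% lower. CYP79B3, which turns tryptophan into the first intermediate, had 1036 and 1256 in hda19, against 2230 and 1900 in hda6 (-0.85 ± 0.14, adjusted p = 0.00053). ASA1, of tryptophan synthesis, had 643 and 721 in hda19, against 1145 and 983 in hda6 (adjusted p = 0.00016). The count of lower genes was 5 without hda19 replicate 1 and 3 without hda6 replicate 1, and that of higher genes was 0 without any library but hda19 replicate 1. Of 13 tested glucosinolate breakdown genes, 2 were higher and 6 lower, with 1 higher without hda19 replicate 2 or hda6 replicate 1. ESM1, a GDSL-type protein that shifts breakdown toward isothiocyanates, had 2074 and 1940 in hda19, against 26070 and 24680 in hda6 and 16070 and 16750 in wild type. With a log2 fold change of -3.66 ± 0.12 (adjusted p = 1.2e-10), hda19 stood below and hda6 above wild type. TGG2, one of the myrosinases that start breakdown, had 19780 and 18370 in hda19, against 26410 and 24740 in hda6 and 16100 and 14420 in wild type (adjusted p = 0.00051). It was above wild type in both hda19 and hda6.

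**Figure D3:**
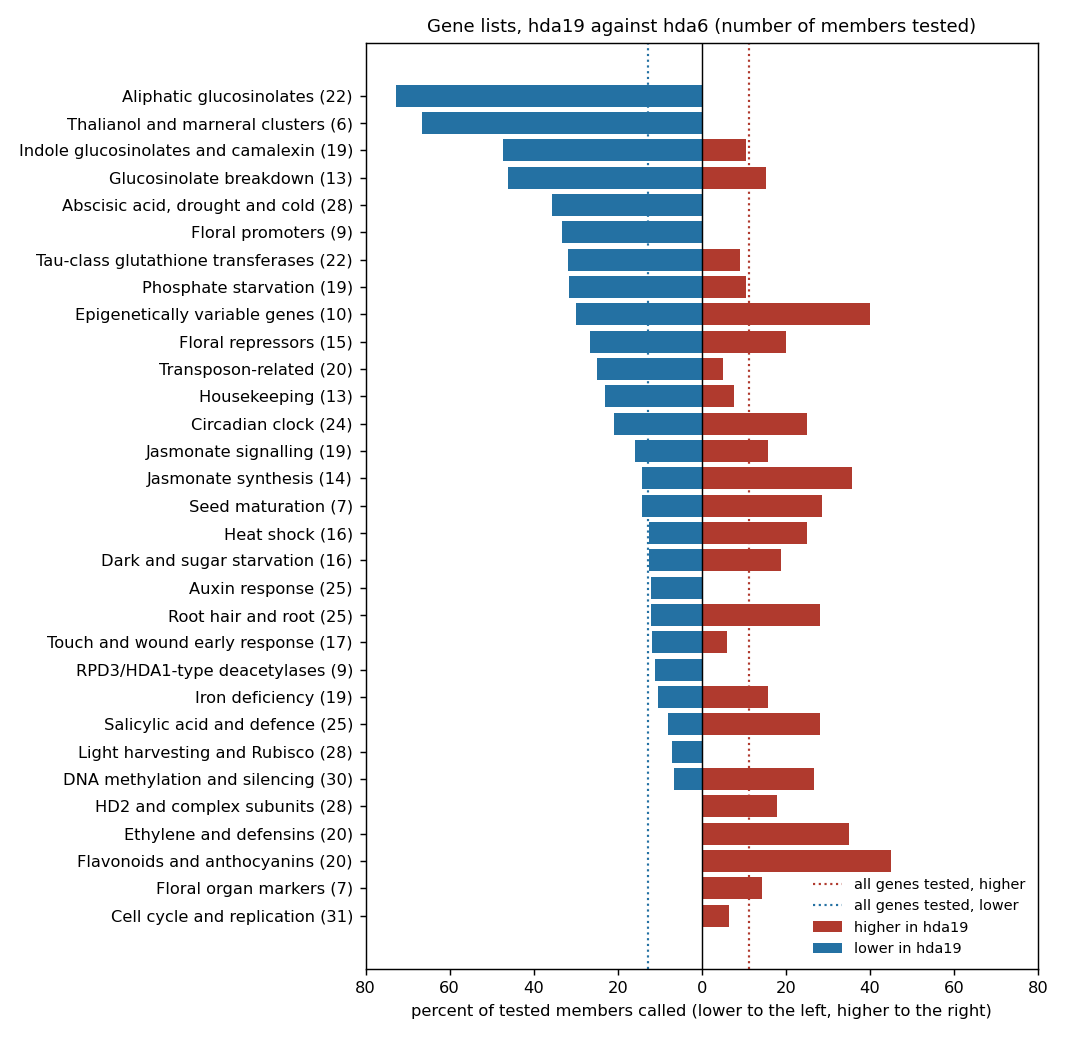
Percent of tested members called higher in hda19 (red, to the right) and lower (blue, to the left) for 31 gene lists with at least 5 tested members, whose number stands in parentheses; dotted lines mark 11.1% higher and 12.7% lower over all tested genes. The aliphatic glucosinolate list reaches furthest to the left (0 higher and 16 lower of 22) and the flavonoid list furthest to the right (9 higher and 0 lower of 20).

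In the other direction, the genes highest in hda19 relative to hda6 were led by the lipid-transfer-like gene AT4G12490 and by the last steps of anthocyanin synthesis. AT4G12490 had 308 and 278 in hda19, against 29.4 and 18.0 in hda6 and 79.6 and 29.0 in wild type (3.61 ± 0.41, adjusted p = 2.8e-05). Anthocyanins are red and purple pigments of the flavonoid pathway. Of 20 tested flavonoid and anthocyanin genes, 9 were higher and 0 lower, beside 11.1% higher and 12.7% lower over all tested genes. Their median log2 fold change was 0.51, and fewer were higher when any 1 library was left out. DFR, which commits flavonoids to anthocyanins, had 702 and 571 in hda19, against 100 and 72.9 in hda6 and 151 and 70.9 in wild type (2.87 ± 0.40, adjusted p = 0.00017). LDOX, the next enzyme, had 436 and 401 in hda19, against 87.3 and 76.9 in hda6 and 133 and 61.9 in wild type (2.34 ± 0.40, adjusted p = 0.00086). In both, the hda19 libraries lay above hda6 and wild type, and hda6 within the wild-type range. The mean in another mutant of the series, rxt3, was higher still, at 1088 for DFR and 838 for LDOX.

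The enzymes that decorate anthocyanins and the transferase that carries them followed DFR. The glycosyltransferase UF3GT had 70.8 and 72.5 in hda19, against 9.15 and 11.0 in hda6 and 27.9 and 9.99 in wild type (2.72 ± 0.50, adjusted p = 0.0015). The acyltransferase AT5MAT had 81.7 and 74.4 in hda19, against 10.2 and 11.0 in hda6 (adjusted p = 0.0021), and GSTF12, needed for transport into the vacuole, had 158 and 150 in hda19, against 30.5 and 33.9 in hda6 (adjusted p = 0.001); it overlaps AT5G17230 on the opposite strand for 108 bases. Of the genes of earlier steps in the list, TT5 and TT7 were called higher (0.49 and 0.67, adjusted p = 0.0099 and 0.031), and TT4, F3H and FLS1 were not. Chalcone synthase (TT4) had 4828 and 4452 in hda19, against 4258 and 3747 in hda6 (adjusted p = 0.28), and flavonol synthase FLS1 had 362 and 416 in hda19, against 412 and 376 in hda6 (adjusted p = 0.94). The regulators TT8, a bHLH factor, and PAP1, a MYB factor, had log2 fold changes of 1.75 and 1.29 (adjusted p = 0.0041 and 0.01). TT8 lost its call without hda6 replicate 2 (adjusted p = 0.052), and PAP1 without hda19 replicate 2 or hda6 replicate 2 (adjusted p = 0.1 each). The UDP-glucosyltransferase gene AT4G14090, also a late step, was not called, at 151 and 117 in hda19 against 98.5 and 84.9 in hda6 (adjusted p = 0.17).

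Because all of these 6 late genes but AT4G14090 were higher, their upstream windows were searched for CACGTG, the core read by many bHLH factors; it equals its own reverse complement. It occurred in 2 of 6 late genes (33.3%), against 1529 of 20845 tested genes (7.34%). The 6 genes were picked for their place in the pathway and with their values known, so the share is a description only. The windows with it are DFR (chr5:17166033-17166282, minus strand) and UF3GT (chr5:21938397-21938646, minus strand), and LDOX (chr4:12006210-12006459, minus strand) is shown beside them as one without it; CACGTG is in capitals.
DFR: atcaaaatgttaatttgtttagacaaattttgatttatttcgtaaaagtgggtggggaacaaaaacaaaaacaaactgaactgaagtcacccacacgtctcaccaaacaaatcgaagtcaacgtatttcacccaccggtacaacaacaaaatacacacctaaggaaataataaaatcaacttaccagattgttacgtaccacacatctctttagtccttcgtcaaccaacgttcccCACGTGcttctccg
UF3GT: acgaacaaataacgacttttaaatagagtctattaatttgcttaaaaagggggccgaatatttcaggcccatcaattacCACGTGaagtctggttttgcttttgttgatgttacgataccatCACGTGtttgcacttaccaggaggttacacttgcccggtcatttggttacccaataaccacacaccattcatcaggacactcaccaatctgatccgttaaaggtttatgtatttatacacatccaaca
LDOX: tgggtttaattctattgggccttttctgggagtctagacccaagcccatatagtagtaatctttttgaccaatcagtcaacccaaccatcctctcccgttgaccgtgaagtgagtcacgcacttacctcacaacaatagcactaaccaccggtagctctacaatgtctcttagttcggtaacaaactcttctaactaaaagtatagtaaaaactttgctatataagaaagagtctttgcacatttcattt
A match is a description of letters, and the lack of one in LDOX, AT5MAT, GSTF12 and AT4G14090 says only that they are not in this window.

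Genes of salicylic acid and defence that were higher in hda19 included PBS3, AIG1, PR2 and SARD1. Of 25 tested genes of salicylic acid and defence, 7 were higher and 2 lower, beside 11.1% higher and 12.7% lower over all tested genes. The count of higher genes depended on single libraries, at 13 without hda19 replicate 1, 4 without hda19 replicate 2, 2 without hda6 replicate 1 and 4 without hda6 replicate 2, and that of lower genes was 0 without hda19 replicate 1 or either hda6 replicate. PBS3, an enzyme of salicylic acid synthesis, had 258 and 519 in hda19, against 73.1 and 79.9 in hda6 and 189 and 224 in wild type (2.25 ± 0.28, adjusted p = 6.1e-05). AIG1, a GTPase gene induced by a bacterial avirulence gene, had 528 and 1010 in hda19, against 101 and 125 in hda6 and 339 and 447 in wild type (2.69 ± 0.53, adjusted p = 0.0024). The same order held for the PR1-like gene AT4G33720, with 657 and 925 in hda19, 155 and 150 in hda6 and 464 and 343 in wild type (2.35 ± 0.21, adjusted p = 3.2e-06). PR2 (annotated as BGL2), a beta-1,3-glucanase, had 1777 and 2649 in hda19, against 384 and 638 in hda6 and 899 and 1436 in wild type (2.13 ± 0.46, adjusted p = 0.0043), and lost its call without hda6 replicate 1 (adjusted p = 0.087). In each of these 4 genes, the hda19 libraries lay above wild type and the hda6 libraries below it. However, PR2 was not called against wild type in hda6 (-1.20, adjusted p = 0.075) or in hda19 (0.93, adjusted p = 0.14). AIG1 was not called against wild type in hda19 (0.91, adjusted p = 0.22). SARD1, a transcription factor of salicylic acid synthesis, had 220 and 360 in hda19, against 77.2 and 94.8 in hda6 and 127 and 79.9 in wild type (1.71 ± 0.36, adjusted p = 0.0034), with hda6 overlapping wild type. SARD1 was not called without hda6 replicate 1 (adjusted p = 0.059), and it overlaps AT1G73790 on the opposite strand for 640 bases. Against wild type, 6 genes of the list were higher and 2 lower in hda19, and 2 were higher and 3 lower in hda6.

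Of 20 tested ethylene and defensin genes, 7 were higher and 0 lower, beside 11.1% higher and 12.7% lower over all tested genes. The count of higher genes fell without hda6 replicate 1. PR4, a chitin-binding protein gene also called HEL, had 9780 and 12410 in hda19, against 2596 and 4136 in hda6 and 3938 and 2561 in wild type (1.75 ± 0.31, adjusted p = 0.0011). ORA59, a factor that joins jasmonate and ethylene signals, had 138 and 118 in hda19, against 68.0 and 68.9 in hda6 (adjusted p = 0.0014). In hda6, PR4 and ORA59 showed no called difference from wild type (log2 fold changes 0.05 and -0.17, adjusted p = 0.94 and 0.49). The defensin gene PDF1.2c had 183 and 94.3 in hda19, against 12.3 and 41.9 in hda6 (2.47 ± 0.61, adjusted p = 0.0096). Its call was lost without hda19 replicate 1 (adjusted p = 0.082) and without hda6 replicate 1 (adjusted p = 0.16, log2 fold change 1.63), and reads may be shared with close copies.

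Jasmonate genes were called in both directions, beside 11.1% higher and 12.7% lower over all tested genes. Of 14 tested synthesis genes, 5 were higher and 2 lower, and of 19 tested signalling genes 3 were higher and 3 lower. VSP2, a vegetative storage protein induced by jasmonate, had 1087 and 1391 in hda19, against 534 and 461 in hda6 and 1022 and 771 in wild type (1.31 ± 0.21, adjusted p = 0.00044). OPR3, a peroxisomal reductase of jasmonate synthesis, ran the other way, with 891 and 834 in hda19, 1402 and 1305 in hda6 and 594 and 685 in wild type (-0.65 ± 0.12, adjusted p = 0.0013). OPR3 was above wild type in both hda19 and hda6. The 5 higher synthesis genes came to 3 without hda19 replicate 2 or hda6 replicate 2, the 2 lower ones to 4 without hda19 replicate 2 and 1 without hda6 replicate 2, and the 3 lower signalling genes to 0 without hda19 replicate 1 or hda6 replicate 2.

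**Figure D4:**
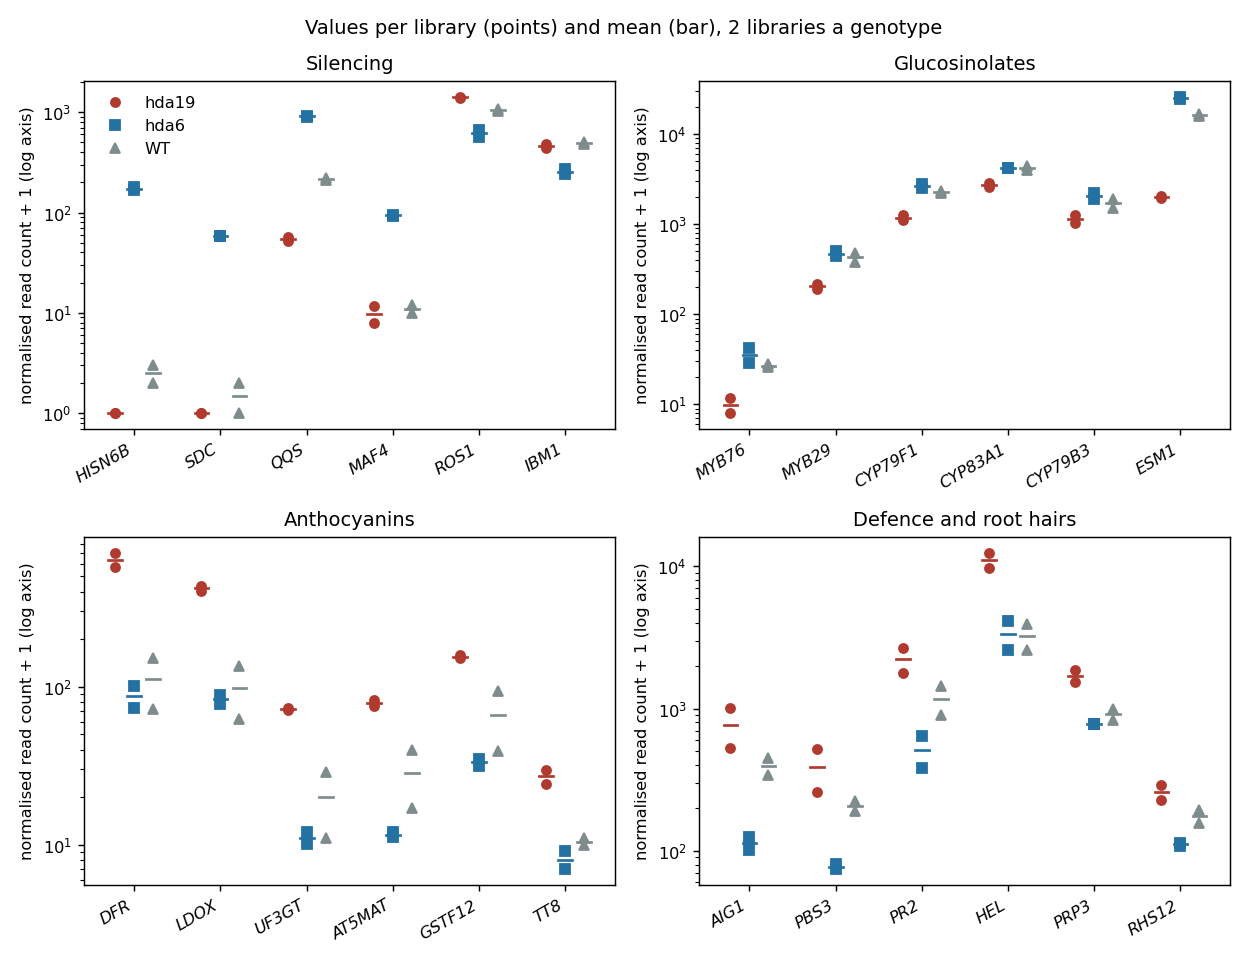
Normalised read count + 1 (log axis) of 24 genes in 4 panels, with a point for each of 2 libraries and a bar at the mean, for hda19 (red circles), hda6 (blue squares) and wild type (grey triangles). In the silencing panel HISN6B and SDC have 0 reads in hda19 and stand at 166 and 179, and at 57.9 and 57.9, in hda6; in the anthocyanin panel DFR stands at 702 and 571 in hda19 against 100 and 72.9 in hda6.

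Of 28 tested genes of abscisic acid, drought and cold, 0 were higher and 10 lower in hda19. Over all tested genes, 11.1% were higher and 12.7% lower. The median log2 fold change of the list was -0.37. NCED3, the rate-limiting step of stress-induced abscisic acid synthesis, had 213 and 297 in hda19, against 595 and 788 in hda6 and 201 and 237 in wild type (-1.44 ± 0.17, adjusted p = 3.6e-05). GolS2, which makes the osmoprotectant galactinol, had 290 and 412 in hda19, against 713 and 715 in hda6 and 616 and 530 in wild type (-1.04 ± 0.13, adjusted p = 6.1e-05). The dehydrin LTI30 had 208 and 253 in hda19, against 434 and 428 in hda6 and 364 and 438 in wild type (adjusted p = 0.00092). The NCED3 difference came with hda6 above wild type (1.65, adjusted p = 1.2e-05), whereas for GolS2 and LTI30 hda19 was below wild type (-0.72 and -0.80, adjusted p = 0.00087 and 0.0017).

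Of 25 tested root hair and root genes, 7 were higher and 3 lower, beside 11.1% higher and 12.7% lower over all tested genes. Both counts depended on single libraries, and that of lower genes fell without hda6 replicate 2. Among the 3 lower genes was CASP5, at 7.97 and 9.68 in hda19 against 19.34 and 31.95 in hda6 (-1.40 ± 0.34, adjusted p = 0.0079). CASP5 lost its call without hda19 replicate 1 or hda6 replicate 2. The 7 higher genes were all of root hairs and included PRP3, a proline-rich cell-wall protein, with 1536 and 1869 in hda19, against 781 and 783 in hda6 and 834 and 994 in wild type (1.11 ± 0.12, adjusted p = 2e-05). RHS12, a pectin methylesterase inhibitor gene, had 228 and 290 in hda19, against 108 and 113 in hda6 and 155 and 193 in wild type (1.21 ± 0.14, adjusted p = 4.3e-05). LRX1, an extensin of the hair wall, had 516 and 593 in hda19, against 328 and 339 in hda6 (adjusted p = 0.00011). The hda19 libraries lay above both other groups in PRP3, RHS12 and LRX1. The summed root markers given above, of which EXPA7 is also a hair gene and was called higher, overlapped between hda19 and hda6, and the part of tissue share in these differences was not tested.

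Of 16 tested genes of darkness and sugar starvation, 3 were higher, 2 lower and 11 not called, beside 11.1% higher and 12.7% lower over all tested genes. SAG29, a sugar transporter gene of senescing leaves, had 1198 and 1209 in hda19, against 412 and 392 in hda6 and 2477 and 1975 in wild type (1.58 ± 0.13, adjusted p = 1.1e-06). It was below wild type in both hda19 and hda6. DIN2, a dark-induced beta-glucosidase, had 443 and 955 in hda19, against 189 and 167 in hda6 and 202 and 222 in wild type (1.87 ± 0.32, adjusted p = 0.0009). ASN1, asparagine synthetase, had 6591 and 6604 in hda19, against 13540 and 14710 in hda6 and 3697 and 4356 in wild type (-1.10 ± 0.20, adjusted p = 0.0013). ASN1 was above wild type in both hda19 and hda6, and higher in hda6 than in hda19. The count of lower genes was 1 when any 1 library was left out.

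The triterpene cluster gene MRN1, marneral synthase, was below wild type in both hda19 and hda6, and lower in hda19 than in hda6. It had 6.97 and 11.6 in hda19, 54.8 and 54.9 in hda6 and 231 and 366 in wild type (-2.48 ± 0.44, adjusted p = 0.0012). Of 6 tested genes of the thalianol and marneral clusters, 0 were higher and 4 lower, beside 11.1% higher and 12.7% lower over all tested genes. The count of lower genes fell when any 1 library was left out. Of 16 tested heat shock genes, 4 were higher and 2 lower, and of 19 tested iron deficiency genes 3 were higher and 2 lower. Among 22 tested tau-class glutathione transferase genes, 2 were higher and 7 lower. The counts of these lists also changed when 1 library was left out. HSP18.2, a small heat shock protein, had 23.9 and 23.2 in hda19, against 81.3 and 92.8 in hda6 and 33.8 and 50.0 in wild type (-1.84 ± 0.20, adjusted p = 2.2e-05), while HSF4, a heat shock factor, had 1214 and 1387 in hda19, against 872 and 799 in hda6 (0.64 ± 0.08, adjusted p = 4.5e-05). IRT2, an iron transporter of roots, had 90.7 and 116 in hda19, against 24.4 and 37.9 in hda6 and 63.6 and 47.0 in wild type (1.72 ± 0.27, adjusted p = 0.00039), opposite in direction to NAS2 above. GSTU25, a detoxifying glutathione transferase, had 94.7 and 80.2 in hda19, against 176 and 186 in hda6 and 79.6 and 62.9 in wild type (-1.04 ± 0.19, adjusted p = 0.0013).

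Light-harvesting and cell cycle genes were mostly not called, as was true of all tested genes, of which 11.1% were higher and 12.7% lower. Of 28 tested light-harvesting and Rubisco genes, 0 were higher and 2 lower, and of 31 tested cell cycle and replication genes 2 were higher and 0 lower. Of 25 tested auxin response genes, 0 were higher and 3 lower, the lower share being near the 12.7% over all tested genes, and of 13 tested housekeeping genes 1 was higher and 3 lower, all 4 by 0.25 or less on the log2 scale. These small counts changed when 1 library was left out: the 2 light-harvesting genes to 0 or 1 without any of the 4, the cell cycle genes to 4 without hda6 replicate 1, to 0 without hda6 replicate 2 and to 1 without either hda19 replicate, and the auxin genes to 0 without hda19 replicate 2 or hda6 replicate 2 and to 1 without hda19 replicate 1. The higher housekeeping gene was lost without any 1 library, and the 3 lower ones came to 0 without hda19 replicate 2 or hda6 replicate 2 and to 1 without hda19 replicate 1. The clock list had 6 higher and 5 lower of 24, among them GI, at 384 and 466 in hda19 against 290 and 284 in hda6 (0.56 ± 0.11, adjusted p = 0.0029), and RVE2, at 124 and 119 in hda19 against 194 and 187 in hda6 (-0.65 ± 0.14, adjusted p = 0.0044). Without hda19 replicate 2 the clock counts were 2 and 2, and without hda6 replicate 1 they were 3 and 2.

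The 3 genes on in hda19 and off in hda6 were fewer and lower than those on in hda6. NGA4, a B3-type leaf development factor, had 22.9 and 22.2 in hda19, against 3.04 and 2.0 in hda6 and 5.96 and 8.99 in wild type (2.76 ± 0.50, adjusted p = 0.0014). The ribosomal protein S5 gene AT1G58983 had 0 and 352 in hda19 and 0 reads in hda6, so that 1 library made it on, and it was not tested. BGLU19, a beta-glucosidase, had 37.9 and 4.64 in hda19, against 6.07 and 0 in hda6, likewise carried by 1 library.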

How the data were processed

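The deposited table gives 1 signal value per gene and library: the authors used HISAT2 2.1.0, featureCounts and edgeR with build TAIR10, per the submitters' processing notes. Strand setting and annotation release are not given in the sources used here. The deposited signal values matched, for 100% of values within a relative tolerance of 1e-06, edgeR's adjusted counts for whole reads; the recovered reads serve for depth, floors and count tests. Floors cover counting error only, since reads carry no molecular identifiers.

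Limma 3.58.1 with a trend (R 4.3.3) was fitted to log2(value + 1) of all 16 libraries as 8 genotypes, for the 20846 genes that reached a value of 10 in 2 or more libraries (2-sided). The procedure was tested on simulated data. All 32548 identifiers matched RefSeq TAIR10.1, which also gave coordinates and sequence.

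The members and gene lists (32, with 680 members in the table) were chosen with earlier results of these data known, and the list symbols were matched to loci without looking at expression. Named genes were the 12 largest called differences in each direction with a mean of at least 50 in the higher mutant and non-overlapping groups, up to 4 called members a list, and the highest 6 on/off genes in each direction. The same rule at a wild-type mean of at least 50, and 19 further genes, were added after values were seen, as were TT4, FLS1, AT4G14090, BNS, PAI1, PPH, FWA, EXPA7, TT5, TT7, F3H, AGL31, MAF1, MAF3, DMT2 and AGO5. Alternatives were a pseudocount of 0.1 or 5, other filters, median-of-ratios rescaling, a fit of the 4 libraries alone, a replicate block, a minimum log2 fold change of 1, edgeR 4.0.16 and DESeq2 1.42.0 on recovered reads, and leaving out each of the 4 libraries. Proteins were not analysed here.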

Additional observations from a re-analysis of the deposited data

How the results depend on the processing

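Counts of genes higher and lower in hda19 than in hda6 (2323 and 2649) stayed within 1.5 times with either pseudocount, other filters, rescaling, a fit of the 4 libraries alone (1685 and 1984) and edgeR on recovered reads (2343 and 2720). They were 1303 and 1693 with DESeq2, and 289 and 753 when 1 or more on the log2 scale was also required. Without 1 library, 1316 to 1683 genes were higher and 1572 to 2052 lower. More genes were lower than higher under each of these but a mean filter of 50, which gave 2201 and 2112. The median log2 fold change over all genes stayed between -0.003 and 0.013. Same-numbered libraries of the mutants deviated with a correlation of 0.046 over genes and were not treated as pairs; a replicate block gave 2491 higher and 2765 lower.

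Of 159 named and tested genes, 158 were called. DESeq2 dropped 19 of these calls, the fit of 4 libraries 11, the unfiltered fit 8, a pseudocount of 0.1 5, and edgeR, the block and a pseudocount of 5 1 each, all with the direction kept. Leaving out a library dropped 28 to 43 calls each, and the cause was not tested. HDA6, not called, ranged from -0.08 to 0.12 without 1 library, below 0 without hda19 replicate 2 (-0.02) or hda6 replicate 2. With 2 libraries a genotype, low genes are the least certain.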
